A study of Mus musculus with 16 samples.

Results

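The genes described here are 34 mouse genes of glucose breakdown and of the response to low oxygen, taken by name from a fixed list, and both tables hold all of them. They are 34 of 29629 genes in a single-cell table and of 47729 genes in a bulk table. By role, they are 2 glucose transporters, 9 enzymes from hexokinase to triose phosphate isomerase, 2 regulators of phosphofructokinase, 5 enzymes of lower glycolysis, 4 genes of lactate formation and export, 1 pyruvate dehydrogenase kinase, 2 carbonic anhydrases, 2 alpha subunits of hypoxia-inducible factor (HIF), 2 HIF prolyl hydroxylases and 5 other hypoxia response genes. The single cells came from ScxGFP iPSCs, a single clone of induced pluripotent stem cells made from fibroblasts of mice that carry a GFP transgene under the control of the *Scx* promoter. T0 cells had been led towards mesoderm and had seen no TGF-β2. T3, T6 and T9 cells had received TGF-β2 for 3, 6 and 9 days, and all cells at every time point carried the transgene. Live cells were sorted into 384-well plates, 3 plates per time point, and sequenced by CEL-Seq2, which tags each captured mRNA molecule with a unique molecular identifier (UMI). Serum was lowered around T0, by the methods on the day before TGF-β2 and by the labels for the TGF-β2 medium. The later cells were released with collagenase as well as trypsin, and no untreated cells were sequenced at T3, T6 or T9. Time in culture, release, and any difference in serum therefore cannot be told apart from TGF-β2. The bulk samples were Achilles tendons of mice aged 2 weeks, from wild-type littermates (Scx_Wt, 2 samples) or from animals without working *Scx* (Scx_KO, 2 samples), *Scx* being the gene of the tendon transcription factor Scleraxis. The pieces are whole tissue with all of its cell types.

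Glycolysis splits glucose into pyruvate and yields ATP without oxygen. Lactate dehydrogenase turns pyruvate into lactate, which leaves the cell through monocarboxylate transporters. HIF is a pair of an alpha subunit (*Hif1a* or *Epas1*) and *Arnt*. When oxygen is present, prolyl hydroxylases (the Egln genes) mark the alpha subunit for degradation through *Vhl*. When oxygen is low, the subunit stays, binds DNA at a short core sequence and raises genes of glucose uptake, glycolysis, blood vessel growth and pH control. *Egln3*, *Bnip3* and *Ankrd37* are well-known targets of the same factor, so that their transcripts are commonly read as a sign of HIF activity. Most of the regulation of *Hif1a* itself acts on the protein and is not seen in counts of mRNA. Tendon is a tissue with few vessels.

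Promoter sequences from RefSeq (GRCm38.p6, 250 bases before to 50 after each gene start) matched 31 members by symbol. *Epas1*, *Ndrg1* and *Slc2a3* had no entry. The HIF core was searched as ACGTG and as GCGTG on both strands, so that a CACGTG counts once on each strand. ACGTG was found in a promoter of 21 of the 31 members (67.7%) and of 5886 of all 27025 genes in the promoter table (21.8%). GCGTG was found in 20 members (64.5%), against 35.2% of all genes. At least 1 of the forms was found in 28 members (90.3%), against 46.7% of all genes, and *Car12*, *Gpi1* and *Tpi1* held neither in this window. The core holds a CG pair, and the members' windows were richer in G and C (median 61.3%, 45 windows) than all windows (52.7%). A match describes these letters only. The following stretches, each read in the direction of the motif with ACGTG in capitals, are shown for 7 members on which the results below turn.
Pgk1: gactagtgagACGTGctacttccat
Ldha: agcccagcggACGTGcgggaaccca
Aldoc: ccgcagagctACGTGactccctggg
Bnip3: agcgtgtggcACGTGcggcgcgtgc
Vegfa: ttgctctctgACGTGggcacgcact
Egln1: gccgtggtgtACGTGcagcgcgcgc
Car9: gacgggctgtACGTGcatcggaaat
The stretch of *Pgk1* lies at chrX:106186959-106186983 on the minus strand, that of *Ldha* at chr7:46845760-46845784 (minus), that of *Aldoc* at chr11:78323090-78323114 (minus), that of *Bnip3* at chr7:138909600-138909624 (plus), that of *Vegfa* at chr17:46025360-46025384 (plus), that of *Egln1* at chr8:124949308-124949332 (minus) and that of *Car9* at chr4:43506998-43507022 (minus). Counted from the RefSeq start of the window as 0, the motif began at position -131 in *Pgk1*, -34 in *Ldha*, 27 in *Aldoc*, -108 in *Bnip3*, -211 in *Vegfa*, -68 in *Egln1* and -18 in *Car9*. A gene can have several such starts, and *Vegfa* and *Ldha* had 2 windows each. The stretch of *Vegfa* lies well inside the annotated gene (46016993-46032369, minus strand), as does that of *Ldha* (46841475-46855627, plus strand). These 2 starts are therefore not the outer ends of the annotated genes. *Ldha* held 5 matches of ACGTG in a window, *Hif1a* itself 3 and *Car9* 1.

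The wells with at least 200 detected genes numbered 4594 of 4608, their UMIs summed to between 1921125 and 4657093 per plate, and the median cell of a plate held 4575 to 11492. The bulk samples held between 11188270 and 12398560 reads. The same 384 well barcodes are used in all plates. The study's mapping summary divides the plates into 7 with more and 5 with fewer reads that fell on no gene, and all T0 plates, T3-2, T6-1, T6-3 and T9-3 are on the first side. Levels are UMIs (or reads) per 1000000 after TMM normalization, which lines up the bulk of the genes between samples, and are written CPM. Summed levels of 10 tenocyte markers were 670.5 to 706.3 CPM at T0, 6731 to 9702 at T3, 13700 to 23140 at T6 and then 18800 to 40140. The epithelial marker sum, by contrast, went from 359.0 to 454.7 CPM at T0 down to 21.9 to 47.2 at T3 and lay between 29.7 and 168.4 later. Markers of dividing cells summed to 1902 to 2064 CPM at T0 and to 735.7 to 897.2 at T9, those of parietal endoderm to 1006 to 1085 and to 8196 to 11190, and pluripotent markers spread from 0.319 to 385.2 within T9. The parietal endoderm list holds matrix genes such as *Sparc* and *Col4a1*, and it summed to 27580 and 29630 CPM in the Scx_Wt tendons. Its rise therefore cannot be read as a gain of that cell type. The part of shifts in cell makeup in the changes below was not tested.

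The step from T0 to T3 held most of the change. By edgeR's quasi-likelihood test with Benjamini-Hochberg adjustment over all genes, 24 of the 34 members were higher at T3 than at T0, where 17.0% of the 13372 genes tested were higher. *Slc16a1* and *Epas1* were the 2 members that were lower, where 16.2% of all genes were. The median log2 fold change was 1.37 over the members and 0.01 over all genes. In 23 members, every one of the 9 plates from T3 to T9 lay above all 3 T0 plates, against 14.3% of all genes, and no member showed the opposite order, against 17.3% of all genes. The members together took 0.400% to 0.427% of the UMIs in the T0 plates, 0.771% to 0.978% at T3, 0.690% to 0.832% at T6 and 0.688% to 0.845% in the last plates. The share in the median cell was 0.316% to 0.331% at T0 and 0.720% to 0.936% at T3. The cells of the 2 time points overlapped, with the 90th percentile of the T0 cells at 0.604% to 0.638% and the 10th percentile of the T3 cells at 0.406% to 0.583%. Abundant members such as *Pkm* weigh most in this share.

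With library totals in place of TMM, the median of all genes moved to -0.21 for this step, that of the members to 1.17, and 21 members were higher and 1 lower. The share of higher genes among all called genes then fell from 51.3% to 39.2%. All T0 plates are on the side of the mapping summary with more reads outside genes. On that side alone, each of the 24 members lay higher in the single T3 plate than in every T0 plate, as did 40.6% of all genes, and the 2 lower ones lay below, as did 39.7%. These members had been called with the same plates, so this order describes them and is no further test. The sizes of the changes moved. On that side, the log2 ratio of the T3 plate to the T0 mean was 2.38 for *Bnip3*, 2.16 for *Ankrd37*, 1.72 for *Egln1* and 1.34 for *Pgk1*. These are smaller than the fold changes fitted over all plates below. For other members it was larger, such as 1.88 for *Hk1* and 1.79 for *Slc16a3*.

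**Figure D1:**
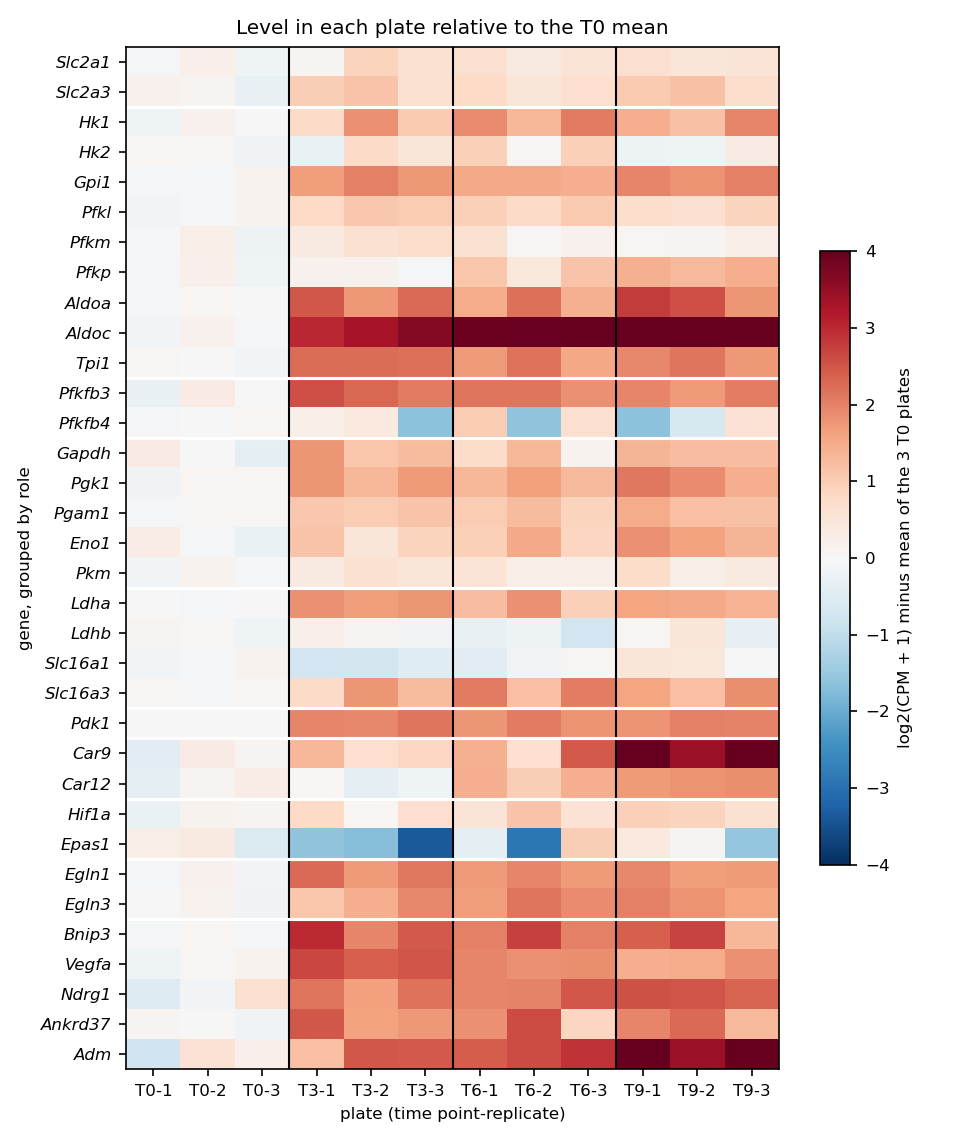
Level of each member (rows, grouped by role) in each of the 12 plates (columns), as log2(CPM + 1) minus the mean of the 3 T0 plates, with red for higher and blue for lower and colours ending at 4 and -4. Most rows turn red at T3 and stay so, *Car9* and *Adm* are deepest at T9, and *Epas1* is blue in the 3 T3 plates.

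Hypoxia response genes other than the enzymes rose together at T3. *Vegfa* (chr17:46016993-46032369, minus strand, as for all genes here in GRCm38 with GENCODE M21), the ligand that drives vessel growth, was at 49.3, 57.0 and 61.3 CPM in the T0 plates and at 363.2, 297.9 and 322.9 CPM in the T3 plates. It rose 2.55 on the log2 scale (SE 0.17, edgeR adjusted p = 1.40e-07), and the lowest T3 plate was far above the highest T0 plate. *Bnip3* (chr7:138890836-138909519, minus strand), a mitochondrial protein that promotes the removal of mitochondria, was at 2.10, 2.40 and 2.11 CPM at T0 and at 24.2, 11.4 and 16.4 CPM at T3. Its rise was 2.93 (SE 0.43, adjusted p = 0.000168 in edgeR). *Ankrd37* (chr8:45996902-46005707, minus strand), an ankyrin repeat gene, was at 1.57, 1.40 and 1.17 CPM at T0 and at 12.4, 6.18 and 6.92 CPM at T3, a rise of 2.54 (SE 0.55) from few molecules, since the T0 plates held 21 of its UMIs in all. Exons of *Ufsp2*, with 906 UMIs in the single-cell table against 225 of *Ankrd37*, overlap it on the opposite strand, and it is not stated whether the counting used strand. *Ndrg1*, a stress-induced gene, rose 1.99 (SE 0.28) and *Adm*, the vasodilator peptide adrenomedullin, rose 2.28 (SE 0.44). All 5 genes of this group were called, where 17.0% of all genes tested were higher at T3.

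Both prolyl hydroxylases among the members rose at T3. *Egln1* (chr8:124908587-124949324, minus strand), the main prolyl hydroxylase for HIF, was at 40.4, 47.2 and 38.6 CPM at T0 and at 203.7, 138.6 and 184.5 CPM at T3, 2.06 higher on the log2 scale (SE 0.18, edgeR adjusted p = 1.91e-06). *Egln3*, the most inducible of the hydroxylases, rose 1.58 (SE 0.23). Of the subunits they act on, *Hif1a* (chr12:73901375-73947530, plus strand) was at 101.4, 136.8 and 133.4 CPM at T0, 214.4, 129.1 and 196.9 at T3, 178.3, 269.0 and 183.9 at T6, then 240.8, 229.4 and 186.2. Its difference at T3 did not pass the test (0.54, SE 0.23, edgeR adjusted p = 0.0851), and the T3 plates overlapped the T0 plates. At T9 it did pass, at 0.82 (SE 0.23, adjusted p = 0.00954 in edgeR), a call that is lost with library totals. The higher *Hif1a* plates were those with fewer reads outside genes, and with that split as a covariate the T3 difference was 0.16 (SE 0.15).

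*Epas1* (chr17:86753700-86833410, plus strand), the other alpha subunit and best known from endothelial cells, went the other way and was scarce. It was at 11.01, 12.2 and 5.85 CPM at T0 and at 2.36, 2.16 and 0 CPM at T3. At T6 it was at 6.98, 0.388 and 19.3 CPM and at T9 at 12.6, 10.0 and 2.55 CPM, a spread as wide as the range of the whole course. The T3 fall of 2.72 (SE 1.00, edgeR adjusted p = 0.0492) rests on 149 UMIs at T0 and 11 at T3, and 14 of 21 alternative settings lost it. The 3 T3 plates and T6-2 were the lowest of all. Endothelial marker sums were 13.8 to 19.2 CPM at T0 and 17.1 to 67.6 at T3. Of the 10 markers, 9, 7 and 9 were detected in the T0 plates and 2, 8 and 5 in the T3 plates. The part of endothelial cells in the fall of *Epas1* was not tested.

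**Figure D2:**
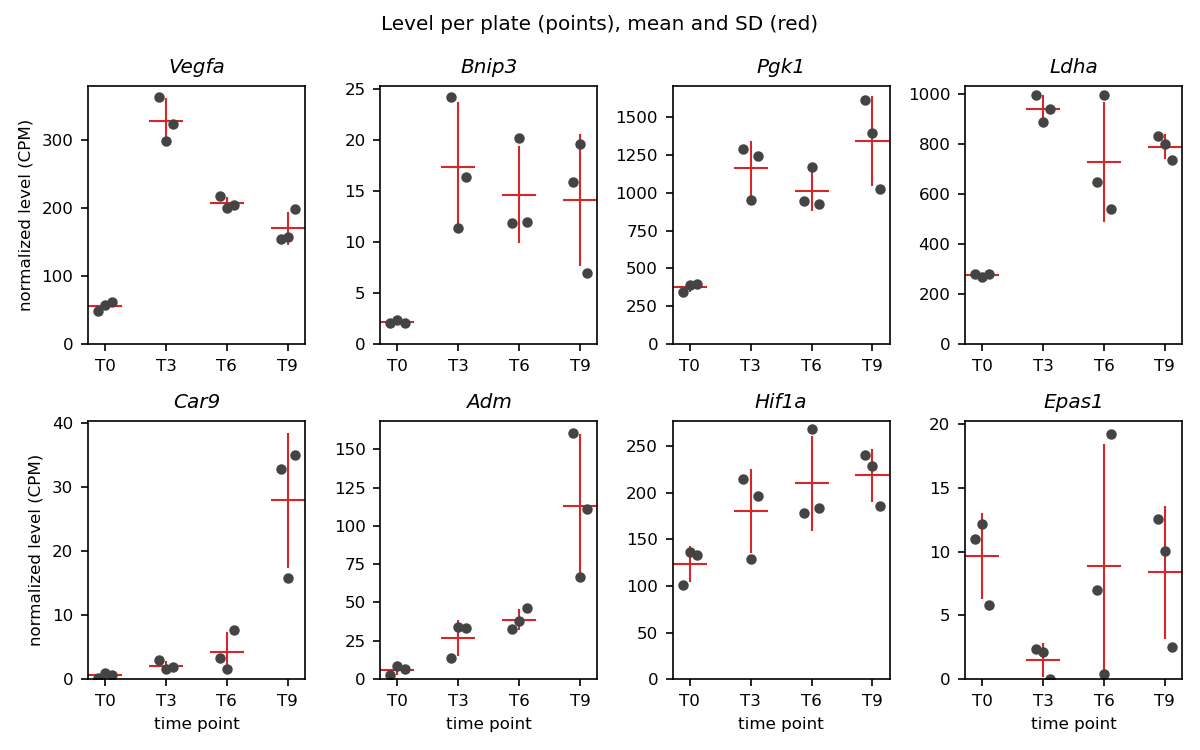
Normalized level (CPM, linear axes from 0) of 8 members in each plate (points) with the mean and SD of 3 plates (red) by time point. *Vegfa* is highest at T3 (297.9 to 363.2 CPM), *Car9* and *Adm* at T9, and the *Epas1* plates of T6 spread from 0.388 to 19.3 CPM.

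The glycolytic enzymes rose along nearly the whole pathway. From hexokinase to triose phosphate isomerase, 7 of 9 genes were higher at T3 (17.0% of all genes were), and 4 of 5 genes of lower glycolysis were. *Aldoc* (chr11:78322968-78327781, plus strand), the aldolase best known from brain, led them, with 6.99, 8.60 and 7.26 CPM at T0 and 69.1, 83.7 and 107.7 CPM at T3. Its log2 fold change was 3.51 (SE 0.23, edgeR adjusted p = 7.82e-08). *Tpi1*, which interconverts the triose phosphates, rose 2.23 (SE 0.19), *Aldoa*, the main aldolase of muscle, 2.19 (SE 0.30), and *Gpi1*, the isomerase of glucose 6-phosphate, 1.81 (SE 0.17). *Pgk1* (chrX:106187100-106203699, plus strand), the first step that returns ATP, was at 341.5, 392.7 and 396.0 CPM at T0 and at 1290, 954.6 and 1239 CPM at T3, with all T3 plates above all T0 plates, a rise of 1.62 (SE 0.21, adjusted p = 6.15e-05 in edgeR). *Hk1*, one of the hexokinases that trap glucose in the cell, rose 1.34 (SE 0.30), *Pgam1*, the mutase after *Pgk1*, 1.07 (SE 0.17), *Pfkl*, the liver-type phosphofructokinase, 0.97 (SE 0.16), and *Eno1*, enolase, 0.84 (SE 0.24). *Hk2* (0.40, SE 0.28), *Pfkp* (0.08, SE 0.21) and *Pkm* (0.48, SE 0.19, edgeR adjusted p = 0.0654) did not pass the test, although all later *Pkm* plates lay above the T0 plates. The call of *Pfkm* (0.59, SE 0.21) was lost in 13 of 21 alternatives and that of *Eno1* in 4. *Pfkfb3*, the kinase that makes the activator of phosphofructokinase, rose 2.39 (SE 0.22), and its relative *Pfkfb4* (-0.13, SE 0.80) did not pass the test at 4.42 ± 0.244 CPM at T0 (SD, n = 3) and 4.07 ± 2.93 at T3.

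*Gapdh* (chr6:125161715-125166467, minus strand), the dehydrogenase between *Tpi1* and *Pgk1*, shares its sequence with many copies. It was at 31.3, 25.0 and 19.2 CPM at T0, 86.8, 54.0 and 61.2 at T3, 41.9, 63.3 and 27.0 at T6, then 65.0, 59.7 and 59.1. Its T3 difference passed the test (1.40, SE 0.29, edgeR adjusted p = 0.00197). However, 77 annotated pseudogenes match its transcript over stretches of at least 100 bases at 95% identity or more, and they cover all of its last 500 bases, the end from which CEL-Seq2 reads come. The single-cell table counts 36200 UMIs on these pseudogenes and 1845 on *Gapdh*, while the bulk table counts 3194 reads and 15129. Per 1000000 UMIs of the plate, the pseudogenes held 758.6 to 888.1 at T0, 836.5 to 1111 at T3, 779.3 to 981.0 at T6 and finally 731.4 to 938.1, ranges that overlap. The change of *Gapdh* is therefore uncertain. In all, 10 members had a pseudogene match, and for the other 9 the pseudogenes held at most 93 UMIs. Reads that fit several places may be lost, so these low counts do not show that the 9 are unaffected. The matches covered 61.8% of the last 500 bases of *Ldhb*, 35.4% of those of *Eno1*, 16.4% of those of *Pgk1* and 3.0% of those of *Ldha*, and none in the rest. Over whole transcripts they covered from 19.3% (*Tpi1*) to 76.8% (*Ldhb*). Only annotated pseudogenes are counted here, while *Eno1* matched 3 other genes, 2 of them pseudogenes. Copies annotated otherwise, such as *Eno1b* below, may also take reads of *Eno1*, so its level and change are uncertain.

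Both glucose transporters were called at T3. *Slc2a1* (chr4:119108711-119137983, plus strand), the widespread glucose transporter, was at 129.1, 153.6 and 118.2 CPM at T0 and at 142.3, 246.1 and 202.7 CPM at T3, and the plates overlapped. Its difference of 0.56 (SE 0.20, edgeR adjusted p = 0.0415) was lost in 10 of 21 alternatives. It stayed near this level, at 205.6, 169.6 and 193.6 CPM at T6 and 209.8, 187.2 and 189.3 CPM at T9. *Slc2a3*, a transporter with high affinity for glucose, rose 0.92 (SE 0.20), from 126 ± 21.4 to 239 ± 44.4 CPM (SD, n = 3).

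At the exit of the pathway, *Ldha* (chr7:46841475-46855627, plus strand), which makes lactate, was at 282.9, 270.1 and 282.9 CPM at T0 and at 996.9, 889.2 and 940.2 CPM at T3. It rose 1.76 (SE 0.21, edgeR adjusted p = 3.31e-05), and the later plates stayed above T0 at 650.0, 997.1 and 540.6 CPM at T6 and 834.1, 799.7 and 737.6 CPM at T9. *Ldhb*, the other lactate dehydrogenase subunit, showed 33.7 ± 3.53 CPM at T0 and 35.2 ± 3.86 CPM at T3 (SD, n = 3). *Slc16a3*, the lactate exporter of glycolytic cells, rose 1.34 (SE 0.28), whereas *Slc16a1*, the more general monocarboxylate transporter, fell by 0.68 (SE 0.19), from 71.7, 76.2 and 87.1 CPM to 45.5, 46.0 and 55.0 CPM. At T6 *Slc16a1* stood at 58.0, 71.8 and 81.5 CPM and at T9 at 108.6, 106.1 and 77.6 CPM, where it did not pass the test against T0 (0.31, SE 0.18). *Pdk1*, the kinase that shuts pyruvate out of the mitochondrial citric acid cycle, went from 37.6 ± 0.578 to 155 ± 12.3 CPM (SD, n = 3), a rise of 2.04 (SE 0.16, adjusted p = 5.09e-07 in edgeR).

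**Figure D3:**
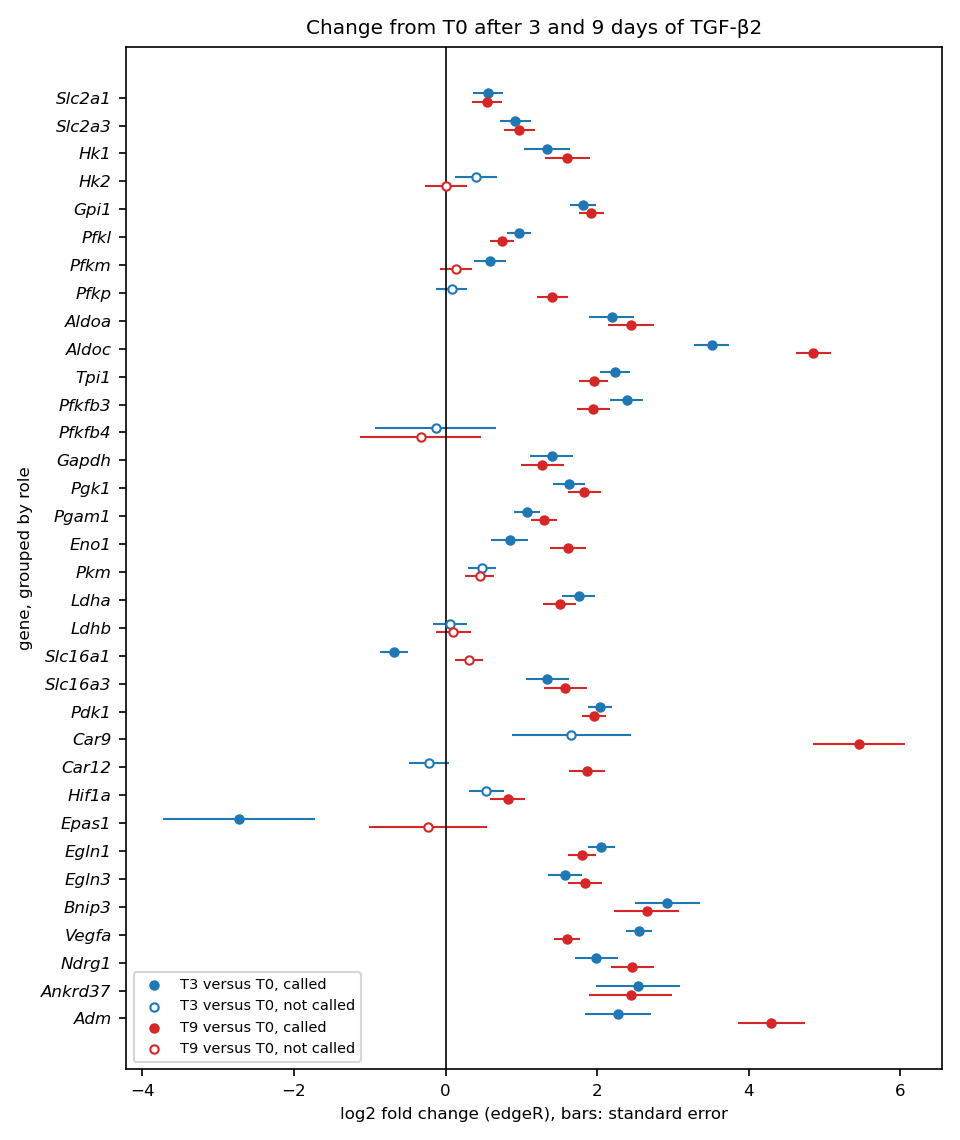
Log2 fold change of each member (rows, grouped by role) from T0 to T3 (blue) and from T0 to T9 (red), fitted by edgeR, with bars for 1 standard error and filled points for adjusted p under 0.05. Many members sit near the same value at both times, while *Car9*, *Epas1*, *Car12*, *Adm*, *Aldoc*, *Pfkp* and *Slc16a1* lie further right at T9 and *Vegfa* further left.

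After T3 few members moved. From T3 to T6, 2 members were higher (2.61% of all genes were) and 1 was lower (1.63%), and from T6 to T9, 1 was higher (0.935%) and 0 were lower (0.688%). At an unadjusted p under 0.05, edgeR gave 8 higher (8.03% of all genes) and 1 lower (7.7%) for the last step, and DESeq2 with adjustment gave 4 (2.66%) and 0 (1.84%). The median over the members was -0.06 for the first of these steps and 0.10 for the second, and over all genes it was 0.03 and -0.01. These small counts move with the settings. They ranged from 1 to 5 members for T6 against T3 and from 0 to 4 for T9 against T6 when 1 plate at a time was left out, and library totals in place of TMM left 1 and 0. With library totals the share of higher genes among all called genes was 54.2% in place of 61.6% for the first step and 30.0% in place of 57.6% for the second.

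*Car12* (chr9:66713686-66766845, plus strand), a carbonic anhydrase of the cell surface, was at 6.99, 10.4 and 11.9 CPM at T0, 10.0, 7.10 and 8.37 at T3, 27.7, 19.8 and 28.1 at T6, then 33.2, 35.5 and 37.7. Its rise between T3 and T6 was 1.60 (SE 0.26, edgeR adjusted p = 0.00296) and the call was kept in 21 of 21 alternatives. *Pfkp* (chr13:6579768-6648777, minus strand), the platelet-type phosphofructokinase, was at 33.9, 40.4 and 31.1 CPM at T0, 39.6, 39.2 and 33.1 at T3, 76.6, 47.4 and 78.4 at T6, then 95.7, 87.3 and 97.4. Its T6 rise of 0.86 (SE 0.20, edgeR adjusted p = 0.0270) was lost in 10 of 21 alternatives. Neither gene differed between T3 and T0 by the test. *Vegfa* was the member that turned down, to 217.4, 199.5 and 204.3 CPM at T6 and 154.4, 157.5 and 198.0 CPM at T9. The fall from T3 to T6 by 0.66 (SE 0.16, edgeR adjusted p = 0.0351) was lost in 11 of 21 alternatives, but it was seen on both sides of the mapping summary, with no T6 plate as high as a T3 plate. *Vegfa* at T9 was still 1.61 above T0 (SE 0.17).

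*Car9* (chr4:43506966-43513729, plus strand), the carbonic anhydrase that is among the most closely HIF-dependent genes, came late. It was at 0.175, 1.00 and 0.702 CPM at T0, 2.95, 1.54 and 1.82 at T3, 3.26, 1.55 and 7.76 at T6, then 32.9, 15.9 and 35.1. The time points before T9 held 9, 15 and 53 of its UMIs, and T9 held 237. The T3 difference from T0 did not pass the test (1.66, SE 0.78, edgeR adjusted p = 0.117). From T6 to T9 it rose 2.66 (SE 0.49, edgeR adjusted p = 0.0164), and no T9 plate overlapped a T6 plate on either side of the mapping summary. This call was lost with library totals, with only the 6 plates of the comparison, without T6-1 and without T9-1. Cells with at least 1 *Car9* UMI made up 0.610% ± 0.398 of a plate at T0, 0.695% ± 0.151 at T3, 2.96% ± 2.10 at T6, then 7.84% ± 2.05 (SD, n = 3). After thinning to 3000 UMIs, which 4301 of the 4594 cells held, the shares were 0.188%, 0.571%, 0.934% and 4.61%, in the same order. *Gm12454*, with 53 UMIs against 314 of *Car9*, overlaps exons of *Car9* on the opposite strand. The shares before T9 rest on few molecules, and no cell type known to lack *Car9* was set apart here to measure stray RNA. *Bnip3* cells, by contrast, made up 2.53% ± 0.397 at T0 and 8.69% ± 0.833 at T3, with 8.20% ± 2.90 at T9. *Adm* followed a course like that of *Car9* in part, at 2.62, 8.40 and 6.32 CPM at T0, 13.6, 34.3 and 33.5 at T3, 32.6, 37.7 and 46.1 at T6, then 160.7, 66.4 and 111.1, although its last step did not pass the test (1.54, SE 0.38, edgeR adjusted p = 0.0577).

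Over the whole course, 27 members were higher at T9 than at T0, where 23.6% of all genes were, and 0 were lower, where 21.6% were. No member was lower at an unadjusted p under 0.05 in edgeR, against 25.7% of all genes, and DESeq2 called 28 higher (18.6% of all genes) and 0 lower (16.8%). The median was 1.61 over the members and -0.02 over all genes. With library totals these became 1.15 and -0.49, with 23 members higher and 0 lower, and the share of higher genes among all called genes went from 52.2% to 28.2%. *Car9* changed most (5.45, SE 0.61, edgeR adjusted p = 7.57e-06), followed by *Aldoc* (4.85, SE 0.23), which reached 270.4, 179.2 and 213.0 CPM after 129.0, 133.1 and 134.0 CPM at T6, by *Adm* (4.30, SE 0.44) and by *Bnip3* (2.65, SE 0.43). *Bnip3* was at 11.87, 20.2 and 11.96 CPM at T6 and at 15.9, 19.6 and 7.03 CPM at T9. *Pgk1* stood at 944.3, 1167 and 925.9 CPM at T6 and at 1609, 1395 and 1022 CPM at T9, and *Ankrd37* at 7.45, 13.6 and 3.32 CPM and at 8.13, 10.4 and 4.79 CPM. The 7 members not called at T9 were *Hk2*, *Pfkm*, *Pfkfb4*, *Pkm*, *Ldhb*, *Slc16a1* and *Epas1*. The mean was highest at T3 for 13 members, at T6 for 5, at T9 for 15 and at T0 for 1, *Epas1*, and it was lowest at T0 for 29. *Aldoa* was among the genes whose plates followed the mapping summary, with 590.2, 978.1 and 566.1 CPM at T6 and 1468, 1281 and 717.1 CPM at T9, the lower values on the side with more reads outside genes.

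The make-up of several isozyme pairs shifted after T0. Each UMI stands for a molecule whatever the gene's length, and shares of 1 isozyme in the UMIs of its family do not depend on the scaling of a plate, and the mean of the 3 T0 plates was compared with that of the 9 later plates by exact two-sided permutation (220 splits, smallest possible p = 0.00909), adjusted over 7 families. *Ldha* took 88.6% to 90.5% of the lactate dehydrogenase UMIs at T0 and 94.4% to 97.2% later (means 89.2% and 96.2%, exact permutation p = 0.00909, adjusted 0.0127). *Hk2* fell from 77.5% of the hexokinase UMIs to 59.7%, and its time points went down in order, 64.5% ± 4.66 at T3, 60.9% ± 3.05 at T6 and 53.6% ± 3.29 at T9 (SD, n = 3), with *Hk1* taking the rest. *Slc16a3* rose from 46.0% to 73.0% of the monocarboxylate transporter UMIs, *Aldoc* from 3.46% to 13.9% of the aldolase UMIs, and *Pfkfb4* fell from 24.3% to 6.52% of the UMIs of *Pfkfb3* and *Pfkfb4*. Each of these had the same exact permutation p = 0.00909 and the same adjusted value of 0.0127. Without T0-2 or without T0-3 the adjusted value of each became 0.0509, although the plates still did not overlap. Leaving out a T0 plate allows fewer splits and so raises the smallest possible p. Each of the 5 shares was still at that smallest p, so the higher value reflects the number of splits.

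The glucose transporter and phosphofructokinase families did not pass. *Slc2a1* was at 51.6% of its pair at T0 and 46.1% later (exact permutation p = 0.0636, adjusted 0.0742, or 0.0424 without T0-1). *Pfkp* was at 27.3% at T0 and 28.5% later (exact permutation p = 0.8), a mean that hides a course from 27.3% ± 3.09 at T0 to 17.7% ± 2.45 at T3, 28.8% ± 3.66 at T6 and lastly 39.1% ± 1.38 (SD, n = 3). *Pfkl* went from 69.0% ± 1.53 at T3 to 52.2% ± 1.13 at T9. On the side with more reads outside genes alone, the 5 shifts kept their direction, where 3 plates against 4 cannot give an exact permutation p below 0.0571.

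**Figure D4:**
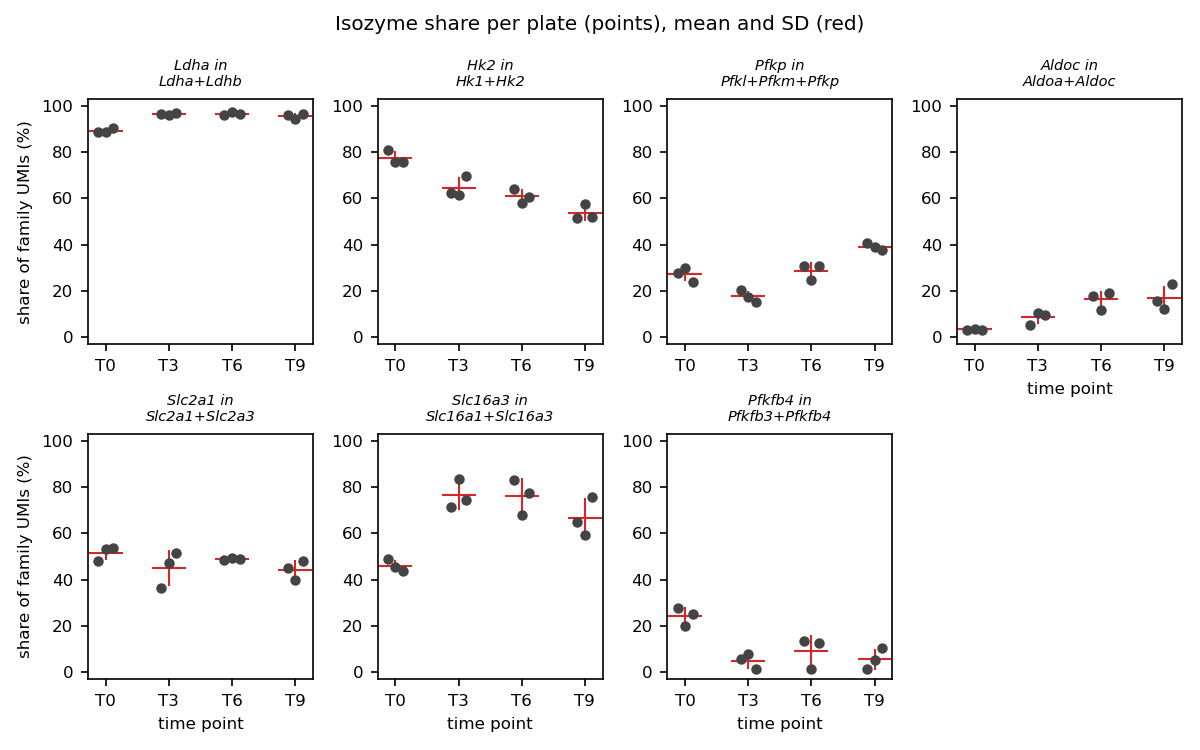
Share of 1 isozyme in the UMIs of its family (%, axes from 0 to 100) in each plate (points) with the mean and SD of 3 plates (red) by time point. *Slc16a3* and *Aldoc* take larger shares after T0, *Hk2* and *Pfkfb4* smaller ones, and *Pfkp* dips to 17.7% at T3 before it reaches 39.1% at T9.

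Other genes of the same pathways, listed with earlier results of these data known, split by kind. Of 28 other hypoxia response genes tested, 21 were higher at T3 than at T0 (17.0% of all genes were) and 1 was lower (16.2%), with a median of 1.38. They were led by *Lox*, the collagen crosslinking enzyme (7.78, SE 0.42, from 1.64 to 3.32 CPM at T0), *Bhlhe40*, a transcriptional repressor (3.82), *P4ha2*, a subunit of collagen prolyl hydroxylase (3.32), and *Higd1a*, a mitochondrial protein (2.93). Collagen enzymes such as *Lox*, *P4ha1* (2.39) and *Plod2* (2.83) also belong to tendon matrix formation. *Angptl4*, a secreted regulator of lipid uptake, fell by 1.37 at T3 and rose by 2.82 from T3 to T6, when *Tfrc*, the transferrin receptor, fell by 1.21 and *Kdm3a*, a histone demethylase, fell by 0.96. At T9, 24 of the 28 were higher than at T0 (23.6% of all genes were), among them *Lox* (9.40), *Bhlhe40* (3.89) and *P4ha2* (3.72). At T9, 1 was lower (21.6% of all genes were), *Tfrc* (-2.47).

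The oxygen sensing machinery showed no common direction. Of 12 such genes, 3 were higher at T3, *Hif3a* (2.30), a HIF alpha subunit, *Arnt* (1.04), the HIF partner, and *Vhl* (0.76), and 2 were lower, *Hif1an* (-1.20), the hydroxylase that blocks HIF's transactivation, and *Cul2* (-0.55), a scaffold of the *Vhl* ligase. The same 3 were higher at T9, and *Arnt2* (-3.06) and *Hif1an* (-1.26) were lower. From T6 to T9 *Cited2* rose by 0.71. Over all genes, 17.0% were higher and 16.2% lower at T3 than at T0, and 23.6% and 21.6% at T9. The small counts called against T0 in this list and in the lists below are not far from these shares. Of 21 further glycolysis genes, 11 were high enough to be tested, and at T3 *Slc16a7* (1.66), *Eno2* (1.43) and *Eno1b* (1.19), a near copy of *Eno1*, were higher and *Eno3* (-3.08) and *Tigar* (-1.51) were lower, with a median of -0.04. At T9 the same 3 were higher, *Eno2* at 2.69, *Slc16a7* at 2.13 and *Eno1b* at 0.89, and *Eno3* (-2.35) and *Tigar* (-1.70) were lower.

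Past pyruvate, 2 of 12 genes were higher at T3 (17.0% of all genes were) and 0 were lower (16.2%). The higher genes were *Pdk2* (1.80), a relative of *Pdk1*, and *Mpc2* (1.70), a subunit of the mitochondrial pyruvate carrier. At T9 *Pdk2* (2.84), *Mpc2* (1.81) and *Pdk4* (1.61) were higher and *Pdhx* (-0.79) and *Dld* (-0.55), both parts of the pyruvate dehydrogenase complex, were lower. In the pentose phosphate pathway, the side branch that makes NADPH and ribose, *Tkt* (0.83) was higher and *Pgd* (-1.20) lower at T3 among 7 genes, and at T9 *Tkt* (0.85) and *Rpia* (0.81) were higher and *Pgd* (-1.31) lower. All of these values are log2 fold changes with edgeR adjusted p under 0.05. Their medians over each list at T3, 0.02 for pyruvate entry and -0.12 for the pentose phosphate pathway, lay near the 0.01 of all genes, unlike the 1.37 of the members.

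In the Achilles tendon, *Scx* itself was at 97.8 and 83.1 CPM in the Scx_Wt samples and at 23.0 and 26.1 CPM in the Scx_KO samples, a fall of 1.88 on the log2 scale (SE 0.17, edgeR adjusted p = 0.000429). Reads on *Scx* remained in the Scx_KO samples, and which part of the gene is deleted was not used here. Of the 33 members tested, 0 were higher in Scx_KO (1.77% of all 14602 genes were) and 2, *Car9* and *Epas1*, were lower (2.07% of all genes were). At an unadjusted p under 0.05, edgeR gave 12 higher (8.4% of all genes) and 9 lower (8.79%), and DESeq2 with adjustment called 2 higher, *Pfkm* and *Ldha* (2.45%), and 2 lower (2.46%). *Aldoc* was too low to be tested, with 0.340 and 0.167 CPM in Scx_Wt and 2.33 and 0.530 CPM in Scx_KO. The median log2 fold change was 0.30 over the members and near 0 over all genes (-0.0042). Without overlap between the samples of each genotype, 14 members lay higher in Scx_KO, against 24.4% of all genes, and 10 lay lower, against 24.9%. In bulk tissue, fewer cells of a type and less RNA per cell cannot be told apart.

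*Car9* was at 57.6 and 54.7 CPM in the Scx_Wt samples and at 1.37 and 2.56 CPM in the Scx_KO samples. It fell by 4.84 on the log2 scale (SE 0.28, edgeR adjusted p = 5.18e-05), 28.7-fold, and kept this call in 9 of 9 alternatives. The cartilage list fell with it. Summed chondrocyte markers were at 2249 and 2624 CPM in Scx_Wt and at 127.6 and 110.6 CPM in Scx_KO, with 6 of the 7 markers detected in each sample and *Matn1* at 0. Among them *Col2a1* (-5.09), the collagen of cartilage, *Col11a2* (-4.34), *Matn3* (-3.99) and *Acan* (-2.95) fell, and tenocyte markers fell too, from 157500 and 156200 CPM to 72150 and 86800 CPM. The part of either cell type in the *Car9* difference was not tested. In the plates the chondrocyte sum was 45.2 to 51.2 CPM at T0, 4.13 to 11.3 at T3, 1.55 to 4.66 at T6 and lastly 4.60 to 8.50.

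*Epas1* was at 167.2 and 180.2 CPM in Scx_Wt and at 94.9 and 95.2 CPM in Scx_KO, a fall of 0.87 (SE 0.15, edgeR adjusted p = 0.0113), also called in 9 of 9 alternatives. The endothelial marker sum was at 1046 and 1092 CPM in Scx_Wt and 806.4 and 684.3 CPM in Scx_KO, all 10 markers being detected, and the receptors *Tek* (-0.73) and *Kdr* (-0.64) fell. The part of endothelial cells in the *Epas1* difference was not tested. *Hif1a* was at 73.1 and 68.0 CPM in Scx_Wt and at 61.2 and 73.2 CPM in Scx_KO (-0.07, SE 0.16, edgeR adjusted p = 0.872), and the genotypes overlapped. *Vegfa* was at 127.3 and 148.4 CPM against 91.0 and 100.2 CPM, without overlap, but did not pass the test (-0.53, SE 0.15, edgeR adjusted p = 0.104). *Slc2a1* was at 16.7 and 13.9 CPM against 25.2 and 12.3 CPM (0.30, SE 0.33).

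Other members that moved in the plates did not pass the test in the tendon. *Bnip3* was at 127.0 and 95.6 CPM in Scx_Wt and at 68.3 and 85.3 CPM in Scx_KO (-0.54, SE 0.19, edgeR adjusted p = 0.169), lower in both Scx_KO samples. *Slc2a3* was at 8.33 and 9.68 CPM against 3.13 and 3.27 CPM (-1.49, SE 0.37, edgeR adjusted p = 0.0631), from 214 and 76 reads in all. *Slc16a1* was at 76.2 and 72.5 CPM against 55.3 and 51.1 CPM (-0.48, SE 0.15). The sensors split, with *Egln1* at 102.1 and 104.2 CPM against 95.4 and 90.1 CPM and *Egln3* at 25.2 and 29.8 CPM against 40.1 and 41.6 CPM, neither of them called. *Pfkp* was at 30.0 and 34.2 CPM against 41.0 and 43.4 CPM (0.39, SE 0.17), and *Car12*, unlike *Car9*, was at 3.40 and 5.59 CPM against 7.23 and 5.56 CPM (0.51, SE 0.42), with overlap. *Adm*, at 15.0 and 9.18 CPM against 11.5 and 14.5 CPM, and *Ankrd37*, at 1.02 and 2.17 CPM against 3.77 and 2.38 CPM, were scarce.

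The glycolytic enzymes differed between the wild-type samples. *Aldoa* was at 1755 CPM in Scx_Wt 1, 3766 in Scx_Wt 2, and 4791 and 4746 in the Scx_KO samples. *Ldha* was at 450.6, 833.0, 1095 and 1163 CPM in the same order, *Gapdh* at 152.2, 307.6, 428.5 and 381.1 CPM, *Pfkm*, the muscle-type phosphofructokinase, at 663.1, 1158, 1494 and 1671 CPM, and *Pgk1* at 14.6, 39.4, 42.2 and 49.3 CPM. Pseudogene matches cover 86.6% of the transcript of *Gapdh*, 68.8% of that of *Pgk1* and 55.0% of that of *Ldha*. Their levels are therefore uncertain beside those of *Aldoa* and *Pfkm*, which had no such match. Of the 15 enzymes from hexokinase to lactate dehydrogenase that were tested, 12 were lowest in Scx_Wt 1 (80% of them, against 25.9% of all genes), with a median ratio of 0.619 between Scx_Wt 1 and Scx_Wt 2. Skeletal muscle fibre markers were also lowest in Scx_Wt 1 and next in Scx_Wt 2, with sums of 42150 and 77650 CPM in Scx_Wt and 95860 and 105400 CPM in Scx_KO, and 12 of 14 of them were lowest in Scx_Wt 1. None of these enzymes passed the test, for example *Pkm* at 0.92 (SE 0.31, edgeR adjusted p = 0.153), *Tpi1* at 0.94 (SE 0.32) and *Ldha* at 0.81 (SE 0.28). Without Scx_Wt 2, the low sample stands alone for the wild type, is taken to vary like the Scx_KO pair, and 12 members were called, 10 higher in Scx_KO (2.33% of all genes) and 2 lower (1.97%). The part of muscle in these differences was not tested.

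**Figure D5:**
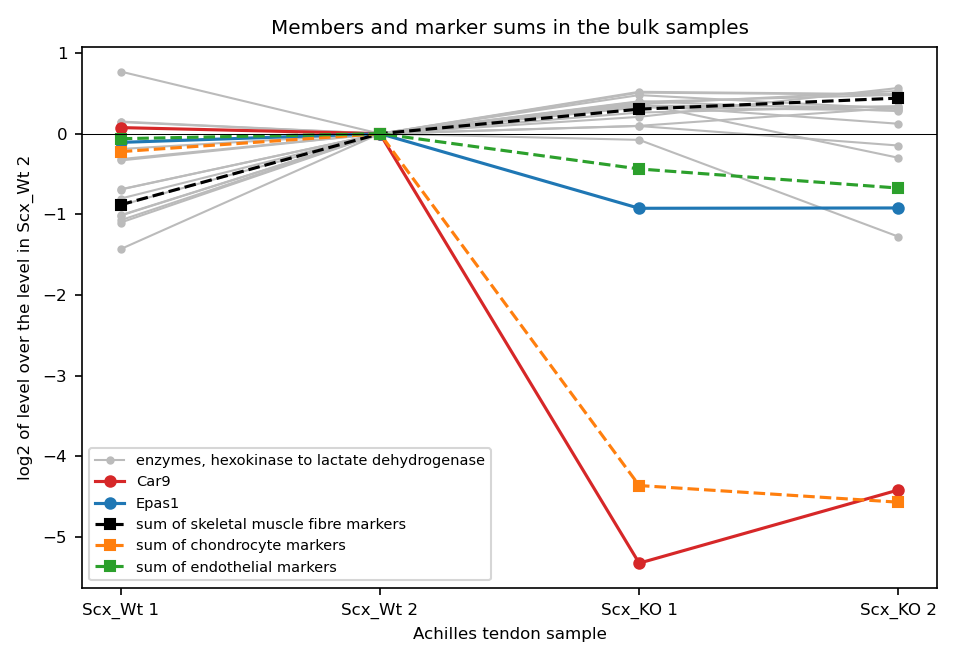
Log2 of the level in each Achilles tendon sample over the level in Scx_Wt 2, for the 15 enzymes tested (grey), *Car9*, *Epas1* and the sums of 3 marker lists, with lines joining the values of a gene or list. Most enzymes and the muscle marker sum are lowest in Scx_Wt 1, and *Car9* and the chondrocyte marker sum are far lower in both Scx_KO samples.

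Isozyme shares in the tendon can be set beside those in the plates. By reads per kilobase, *Pfkm* made up 96.0% to 98.5% of the phosphofructokinase reads, whereas it took 8.31% to 8.95% of the UMIs in the T9 plates. The UMIs of *Pfkm* are uncertain, since exons of *Senp1*, with 1181 UMIs against 947 of *Pfkm*, overlap it on the opposite strand and the strand setting is not known. Exons of 13 members are overlapped in this way, among them those of *Pfkp* by *Pitrm1*, with 574 UMIs against 2392 of *Pfkp*. *Aldoa* made up at least 99.96% of the aldolase reads. The tendon pieces held skeletal muscle fibre markers at 42150 to 105400 CPM in sum. In the T9 plates, where 11 of the 14 markers are in the data, the sum was 27.8 to 116.0 CPM. The part of muscle in these shares was not tested. *Slc16a3* took 30.6% of its pair in Scx_Wt 1, 60.0% in Scx_Wt 2, and 72.9% and 74.4% in the Scx_KO samples, and *Ldha* 63.9%, 84.8%, 88.5% and 94.97%, in the order of the muscle marker sums. The assays differ, so these shares stand side by side without a test. Among genes outside the members, *P4ha1* (-1.66), *Angptl4* (-1.53), *Ddit4* (-1.16), an inhibitor of growth signalling, and *Pdk4* (-1.82), the pyruvate dehydrogenase kinase of fasting, fell in Scx_KO, and *P4ha2* rose by 1.77 (edgeR adjusted p under 0.05 for each). *P4ha1* and *P4ha2* are alternative catalytic subunits of the same collagen hydroxylase, and they went from 512.4 and 612.4 CPM to 190.9 and 165.6 CPM and from 30.8 and 35.1 CPM to 99.96 and 124.0 CPM. Adipocyte markers, 3065 and 1290 CPM in Scx_Wt and 809.6 and 399.8 CPM in Scx_KO in sum, moved with *Angptl4* and *Pdk4*, and their part was not tested. None of the 12 oxygen sensing genes, 16 other glycolysis genes and 7 pentose phosphate genes tested passed the threshold in edgeR. An unadjusted p under 0.05 in edgeR was reached by 2, 5 and 1 of them, where 8.4% of all genes were higher and 8.79% lower. DESeq2 calls were not counted for these lists.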

How the data were processed

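UMI counts per gene and well of 12 CEL-Seq2 plates and read counts per gene of 4 Achilles tendon samples were used as deposited. Per the labels and the study's methods, the authors trimmed the reads, aligned them to GRCm38 with HISAT2 (2.2.1 for single cells, 2.0.4 for bulk), counted with featureCounts (1.5.0 for bulk) and collapsed UMIs with UMI-tools 1.0.1. The deposited counts are not normalized. The annotation release and the strand setting of the counting are not given in the sources used here. Reads that fit several places may be lost or split between copies. Genes were named with GENCODE M21 (29538 single-cell and 47310 bulk IDs matched), and 3 entries that are not Ensembl genes (0.0642% of UMIs) were left out.

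UMIs were summed per plate over wells with at least 200 detected genes. The sums were fitted with edgeR 4.0.16 (R 4.3.3; filterByExpr, TMM, quasi-likelihood test, Benjamini-Hochberg, adjusted p under 0.05), all 12 plates in 1 fit, and the bulk samples on their own. DESeq2 1.42.0 was an alternative. Standard errors are the log2 fold change over the square root of F. Isozyme shares were compared by exact permutation. Other steps used Python 3.11.15, numpy 2.4.6, pandas 2.3.3 and matplotlib 3.10.9, and BLAST for near copies. The fits were tested on simulated counts. The study names no test between plates. Nothing says that the plates of a time point came from separate cultures, so p-values measure the spread between plates, which may be technical. Replicates differed by more than counting error in all groups.

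The members, lists, rule and alternatives were chosen with earlier results of these data known. The rule gives every sample's value for the 4 called members with the largest change in each direction per comparison, all called members where 8 or fewer are called, and *Hif1a*, *Epas1*, *Car9*, *Slc2a1*, *Ldha*, *Pgk1*, *Gapdh* and *Vegfa*, plus up to 4 called genes in each direction of every other list. Other members with values, and the collagen enzymes, were chosen after their values were seen. 1 gene that the rule would name is not reported here.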

Additional observations from a re-analysis of the deposited data

How the results depend on the processing

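No call changed its direction under any alternative. For T3 against T0 and T9 against T0, the counts of members called (26 and 27) stayed within 1.5 times under every alternative, with 22 to 28 and 23 to 28, and with 21 to 26 and 26 to 27 when 1 plate was left out. The later steps depended on the settings. For T6 against T3, where 3 members were called, library totals in place of TMM (added after seeing the data), the replicate block and the fit of only 6 plates each left 1, and the mapping split as a covariate gave 5. Leaving out 1 plate gave 1 to 5, with 1 without T3-1, T3-3, T6-1 or T6-3 and 5 without T6-2. For T9 against T6, where 1 was called, library totals and the 6-plate fit left 0, no filter on low counts and thinning gave 2, DESeq2 4 and the split covariate 6. Leaving out 1 plate gave 0 to 4, with 0 without T6-1 or T9-1, 2 without T0-1, T3-1 or T6-2 and 4 without T9-3. Over all genes, the 567 calls for T6 against T3 became 299 with library totals, 868 with DESeq2, 1010 without the filter, 1483 with the split covariate and 264 in the 6-plate fit, and 291 to 890 with a plate left out. The 217 calls for T9 against T6 became 90, 558, 684, 813 and 45 in the same order, 113 with the replicate block and 143 after thinning, and 35 to 852 with a plate left out. Leaving out a plate gave 3001 to 5084 calls over all genes for T3 against T0 (4439 with all plates) and 4774 to 6684 for T9 against T0 (6050).

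In the bulk samples, the 2 calls among the members became 4 with DESeq2, 17 without a filter on low counts (11 higher and 6 lower) and 14 with the replicate block (9 higher and 5 lower), and 2 to 12 when 1 sample was left out, with 12 without Scx_Wt 2. The 560 calls over all genes became 1415 without the filter and 1108 with the block, and 380 to 666 with a sample left out. Whether replicate numbers pair the samples is not settled here. Deviations of same-numbered plates correlated at -0.563 to 0.515, and those of differently numbered plates at -0.563 to 0.488. In the bulk samples, the 2 samples of a genotype deviate from their mean as mirror images. The value of 0.0715 for both bulk pairs therefore can neither show nor exclude pairing. The block changed no direction. Among the isozyme shares, limiting the plates to the side with more reads outside genes left the differences between T0 and later plates (in percentage points) at -7.06 for *Ldha*, 18.0 for *Hk2*, -14.2 for *Aldoc*, -33.9 for *Slc16a3* and 13.2 for *Pfkfb4*, past no threshold because 3 plates against 4 cannot reach it. Leaving out 1 plate gave -7.62 to -6.65 for *Ldha*, 16.2 to 19.1 for *Hk2*, -11.5 to -9.36 for *Aldoc*, -28.8 to -25.8 for *Slc16a3*, 16.1 to 19.9 for *Pfkfb4*, 4.23 to 7.30 for *Slc2a1*, which passed without T0-1, and -2.87 to 0.442 for *Pfkp*. Without T0-2 or T0-3 the first 5 no longer passed after adjustment, although each was at the smallest p that the fewer splits allow. Genes with few UMIs per plate (*Epas1*, *Car9*, *Pfkfb4*, *Ankrd37*) are limited by depth. The cause of the other changes was not tested.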
